A study of Mus musculus with 17 samples.

Results

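The genes described here encode the subunits of the NMDA receptor: Grin1, Grin2a, Grin2b, Grin2c, Grin2d and Grin3a. They were found by symbol among the Ensembl identifiers of the count lists, 6 of 55450 genes, and all 6 passed the filter on low counts. Hippocampal RNA from adult C57BL/6J wild-type mice was sequenced in 17 libraries. Control sgLacZ mice (n = 5) were sham animals, and epileptic sgLacZ (n = 6) and epileptic sgKcna1 mice (n = 6) had received kainic acid in the right amygdala, a model of temporal lobe epilepsy. All 3 groups carried the same pair of AAV9 vectors in the right ventral hippocampus, 1 that makes the activator dCas9-VP64 when doxycycline is given and 1 with a guide RNA and a transactivator under the Camk2a promoter, which is active in excitatory neurons. All groups were placed on a doxycycline diet. The guide was either sgLacZ, which has no target in the mouse genome, or sgKcna1 (sg19), directed to the promoter of the potassium channel gene Kcna1. Epileptic and control mice thus differ by the kainic acid treatment, and the sgLacZ and sgKcna1 groups of epileptic mice by the guide. The design holds no control mice with sgKcna1. The methods give both sexes for the study, and the labels give no sex for a library.

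The NMDA receptor is a cation channel, gated by glutamate in its forms with GluN2 subunits. These forms pass current only when glutamate and a co-agonist, glycine or D-serine, are bound and depolarization has removed a magnesium ion from the pore. The receptor is a tetramer that always contains GluN1, the product of Grin1, combined with GluN2 subunits, which bind glutamate, or GluN3 subunits, which bind glycine. In the hippocampus GluN2A and GluN2B dominate in principal neurons, GluN2D is found mainly in interneurons in the adult, GluN2C is best known from cerebellar granule cells and glia, and GluN3A is most abundant early in life. The calcium that enters through the receptor drives synaptic plasticity and, in excess, cell death, which is the background to its study in epilepsy.

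Grin1 and Grin2d varied together over the libraries whereas Grin2c did not vary with them, and the part of promoter sequence in this was not tested. Promoter sequences are shown for the 3 of the 6 genes that have an entry in the RefSeq promoter table. Each is the 250 bases before the 1 transcript start that the RefSeq promoter table on GRCm38.p6 gives for the gene, on the minus strand, 5′ to 3′: chr2:25319188-25319437 for Grin1, chr7:45866682-45866931 for Grin2d and chr11:115267244-115267493 for Grin2c. Only that of Grin1 lies wholly outside the annotated gene. The Grin2c sequence overlaps the outer end of its gene (chr11:115249169-115267297), and that of Grin2d lies inside its gene (chr7:45831883-45871194), so its start is not the outermost one. Capitals mark the GC box GGGCGG, searched on both strands.
Grin1: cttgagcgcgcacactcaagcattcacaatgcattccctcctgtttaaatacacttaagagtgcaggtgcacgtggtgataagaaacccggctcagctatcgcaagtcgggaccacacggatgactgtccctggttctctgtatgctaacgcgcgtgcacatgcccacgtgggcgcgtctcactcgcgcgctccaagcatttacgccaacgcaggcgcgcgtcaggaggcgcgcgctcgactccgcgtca
Grin2d: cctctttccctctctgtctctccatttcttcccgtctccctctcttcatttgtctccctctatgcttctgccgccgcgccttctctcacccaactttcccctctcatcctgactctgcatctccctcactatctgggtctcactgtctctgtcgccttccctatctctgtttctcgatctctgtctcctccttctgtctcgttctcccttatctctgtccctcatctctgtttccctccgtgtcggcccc
Grin2c: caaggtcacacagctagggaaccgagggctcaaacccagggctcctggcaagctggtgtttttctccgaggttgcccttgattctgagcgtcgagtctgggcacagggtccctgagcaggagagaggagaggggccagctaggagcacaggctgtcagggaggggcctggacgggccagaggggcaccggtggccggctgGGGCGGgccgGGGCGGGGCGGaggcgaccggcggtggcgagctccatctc
The Grin2c sequence held 3 matches, of which the last 2 share 1 base, and those of Grin1 and Grin2d held 0. Of 32851 promoter sequences of the same length, 32.7% held the motif. The Grin1 sequence had 27 CpG sites and 58.8% GC, that of Grin2d 9 sites and 54.4% GC, and that of Grin2c 15 sites and 68.8% GC, against a median of 52.4% GC over all promoters. Grin2a, Grin2b and Grin3a had no promoter entry in the table. On the same assembly Grin2a lies on chr16:9567901-9996083, Grin2b on chr6:135713221-136173615 and Grin3a on chr4:49661611-49846023, spans of 428183, 460395 and 184413 bases, whereas Grin1, Grin2c and Grin2d span 28011, 18129 and 39312 bases.

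The libraries held 11839240 to 28311328 reads in genes. Levels are given as CPM, read counts scaled to a common library size by TMM, and 3 reads, taken as the floor of detection, were 0.106 to 0.253 CPM. This floor covers counting error only. Unmapped reads made up 19.5 to 27.7% of reads in control, 11.0 to 24.1% in epileptic sgLacZ and 19.1 to 41.5% in epileptic sgKcna1 libraries. Epileptic sgKcna1 replicate 12 stood apart, with the fewest reads and the 41.5% unmapped, and several results that rest on it are given with and without it. Those given with it only include the GluN2 shares, the correlations within its group and the likeness to other genes. Kcna1, the target of the guide, had 13.9 to 29.5 CPM in 5 of the 6 libraries labelled sgKcna1 and 133 CPM in replicate 12, against 16.9 to 56.7 CPM in epileptic sgLacZ and 25.5 to 44.0 CPM in control libraries. The edgeR quasi-likelihood log2 fold change of Kcna1 between the guides was 0.32 (95% interval -0.66 to 1.31, adjusted p = 0.706), so this gene did not separate the libraries by their labels. Of the genes in the 15 marker lists, 0 were without reads in any group. Lists of choroid plexus, thalamus, striatum and cortex are among them, so detection does not identify the tissue. Summed choroid plexus markers ran from 1189 to 12447 CPM in control, 4295 to 11347 in epileptic sgLacZ and 288 to 7759 in epileptic sgKcna1 libraries. Medians in the same order were 298, 220 and 228 CPM for CA3 markers and 198, 243 and 152 CPM for dentate granule cell markers. For cortex markers they were 97.0, 96.8 and 130 CPM. The part of tissue composition was not tested. Summed neuronal markers (5 genes) ran from 4570 to 4941 CPM in control, 3995 to 4572 in epileptic sgLacZ and 4287 to 5179 in epileptic sgKcna1 libraries.

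To set the 6 genes against each other, CPM was divided by the length in kb of the longest annotated coding transcript. On this scale Grin1 was highest, at 50.1 ± 14.0 CPM per kb (SD, n = 17 libraries), followed by Grin2b at 45.9 ± 19.4. Grin1 was above Grin2b in 12 of 17 libraries, and the means differed by less than either spread. With coding length instead, Grin2b (77.2 CPM per coding kb) was above Grin1 (74.3), so their order depends on the length used. It depends on the counted strand as well: with both strand columns summed, Grin1 was at 80.2 and Grin2b at 42.6 CPM per kb, and Grin1 was above Grin2b in 16 of 17 libraries. Grin2a followed at 34.9 ± 4.74 CPM per kb and was below Grin2b in 15 of 17 libraries. Grin2c (8.91 ± 0.961 CPM per kb), Grin3a (4.27 ± 1.34) and Grin2d (2.09 ± 0.978) came next, each below the gene before it in 17 of 17 libraries. In summed counts Grin3a (3.85 CPM per kb) was above Grin2d (3.35) in 9 of 17 libraries only. In each group the means of Grin1, Grin2b and Grin2a were above those of Grin2c, Grin3a and Grin2d on this scale. Grin3b, which encodes the remaining subunit GluN3B, had 0 to 12 reads per library and was not tested. Its strand columns held 160 to 454 reads, so nearly all reads in its exons lay where a gene on the other strand overlaps it.

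**Figure D1:**
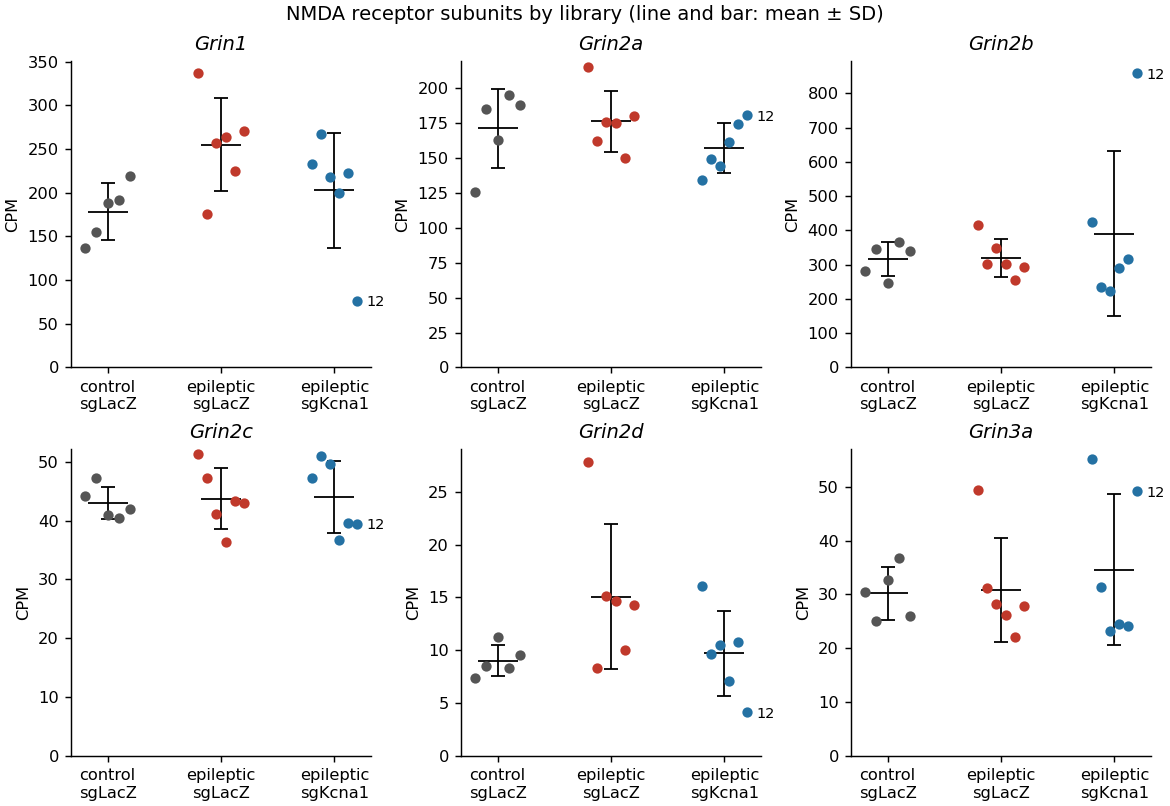
Level of each NMDA receptor subunit gene in CPM (vertical axis, from 0) by library, with 1 point per library in 3 groups and the mean ± SD of each group. Grin1 and Grin2d of epileptic sgLacZ mice sit mostly above the control points, and epileptic sgKcna1 replicate 12, marked 12, is the lowest for Grin1 (76.3 CPM) and the highest for Grin2b (859 CPM).

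Grin1, the obligatory subunit, was higher in most epileptic sgLacZ libraries than in controls, but the difference did not pass the test. The 5 control libraries (replicates 13, 14, 15, 16 and 23) had 137, 155, 189, 192 and 219 CPM. The epileptic sgLacZ libraries ranged from 176 to 338 CPM with a median of 260. In 5 of 6 epileptic sgLacZ libraries Grin1 was above every control, and replicate 5 lay inside the control range. The means were 255 ± 53.4 CPM (SD, n = 6) and 178 ± 32.4 (n = 5), a log2 fold change of 0.52 (SE 0.23, 95% interval 0.04 to 1.00). By the quasi-likelihood test of edgeR with Benjamini-Hochberg adjustment, p was 0.0368 before and 0.120 after adjustment. Without epileptic sgKcna1 replicate 12, a library of neither group, the log2 fold change was 0.51 and passed the threshold (edgeR adjusted p = 0.0179), as did 27.1% of all genes in that fit.

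In epileptic sgKcna1 mice, Grin1 ran from 76.3 to 267 CPM with a median of 221. Replicate 12 had the 76.3 CPM and the other 5 libraries had 200.05 to 267 CPM. Against epileptic sgLacZ the log2 fold change was -0.33 (95% interval -0.78 to 0.13, edgeR adjusted p = 0.377), and against control it was 0.19 (-0.29 to 0.67, adjusted p = 0.857). Without replicate 12 these were -0.16 (edgeR adjusted p = 0.548) and 0.35 (adjusted p = 0.2375). The epileptic sgKcna1 libraries overlapped both other groups. Their mean was 203 ± 65.9 CPM (n = 6), and 228 ± 24.8 CPM (n = 5) without replicate 12.

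The unstranded count of Grin1 leaves out a large part of its reads. RefSeq places the long non-coding RNA Grin1os (chr2:25291258-25298660) wholly within the span of Grin1 (chr2:25291177-25319187), and reads in exons of both are counted for neither. The unstranded count was 52.3 to 59.3% of the summed strand counts of Grin1 in control, 52.7 to 59.1% in epileptic sgLacZ and 31.2 to 61.1% in epileptic sgKcna1 libraries, with the 31.2% in replicate 12. Grin1os itself had 0 to 51 unstranded reads and 1797 to 8550 in the strand columns. Reads of the gene and of its antisense partner cannot be told apart in these unstranded libraries.

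When both strand columns were summed, Grin1 was at 284 ± 37.0 CPM (n = 5) in control, 410 ± 96.2 (n = 6) in epileptic sgLacZ and 325 ± 61.0 (n = 6) in epileptic sgKcna1 libraries. The log2 fold change between epileptic sgLacZ and control was 0.53 (SE 0.16, 95% interval 0.19 to 0.88) and passed the threshold (edgeR adjusted p = 0.0416), as did 14.2% of all genes tested this way. The call rested on single libraries: it was lost in 11 of the 17 fits that left out 1 library. These left out epileptic sgLacZ replicates 4, 6, 7 and 9, any 1 of the 5 controls, or epileptic sgKcna1 replicates 3 and 10. Calls over all genes fell as well. Without epileptic sgLacZ replicate 7 or 9 or control replicate 13, 14 or 16, 0% of all genes passed, and 0.261% without epileptic sgLacZ replicate 4. In the rest of these fits 5.81 to 10.4% of all genes passed. Adjusted p over the 17 fits ran from 0.0056 to 0.106, and the log2 fold change from 0.42 to 0.63. The groups overlapped on this scale as well. Against epileptic sgLacZ, epileptic sgKcna1 libraries had a log2 fold change of -0.34 in summed counts (95% interval -0.66 to -0.01, edgeR adjusted p = 0.243).

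Grin2a and Grin2b encode the glutamate-binding subunits of most hippocampal receptors, and neither differed between groups beyond the spread of the libraries. Grin2a had 126, 185, 163, 196 and 188 CPM in control replicates 13, 14, 15, 16 and 23. It ranged from 150.2 to 215 CPM (median 176) in epileptic sgLacZ and from 135 to 181 CPM (median 155) in epileptic sgKcna1 libraries. The 3 groups overlapped, although 3 of 6 epileptic sgKcna1 libraries lay below every epileptic sgLacZ library. The log2 fold change was 0.04 for epileptic sgLacZ against control (95% interval -0.21 to 0.29, edgeR adjusted p = 0.8285) and -0.16 between the guides (-0.40 to 0.07, adjusted p = 0.397). Against control the epileptic sgKcna1 libraries gave -0.12 (-0.37 to 0.13, adjusted p = 0.823). The intervals reach no further than 0.40 from 0, so larger changes of Grin2a between groups are outside them.

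Grin2b had 283, 346, 246, 366 and 340.5 CPM in control replicates 13, 14, 15, 16 and 23. The epileptic sgLacZ libraries had 254 to 416 CPM with a median of 301, and the epileptic sgKcna1 libraries 222 to 859 CPM with a median of 303. Replicate 12 held the highest value and replicate 1 the next, 425 CPM, while the other 4 epileptic sgKcna1 libraries lay between 222 and 315 CPM. The log2 fold change was 0.01 for epileptic sgLacZ against control (95% interval -0.56 to 0.58, edgeR adjusted p = 0.981), 0.29 between the guides (-0.25 to 0.83, adjusted p = 0.508) and 0.30 when epileptic sgKcna1 was set against control (-0.26 to 0.87, adjusted p = 0.818). The direction of both sgKcna1 differences was set by replicate 12. Without it they were -0.11 and -0.10. The group mean was 391 ± 240.5 CPM (n = 6) with it and 297 ± 81.5 (n = 5) without it.

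The ratio of Grin2b to Grin2a in the same library does not depend on library scaling. Its log2 was 0.89 ± 0.21 (SD, n = 5) in control, 0.84 ± 0.11 (n = 6) in epileptic sgLacZ and 1.14 ± 0.66 (n = 6) in epileptic sgKcna1 libraries, which is 1.51 to 2.25 times more Grin2b than Grin2a reads in control and 1.63 to 1.98 times more in epileptic sgLacZ mice. In epileptic sgKcna1 mice the ratio was 4.75 in replicate 12 and 3.16 in replicate 1, above every other library, and 1.53 to 1.81 in the other 4. By two-sided exact permutation tests over libraries the difference in log2 ratio was -0.04 for epileptic sgLacZ against control (p = 0.686), 0.30 for epileptic sgKcna1 against epileptic sgLacZ (p = 0.409) and 0.26 for epileptic sgKcna1 against control (p = 0.461). Without replicate 12 the last 2 were 0.08 (exact p = 0.853) and 0.04 (exact p = 0.9365). With all libraries the adjusted p was 0.686 for the 3 exact tests, and the smallest p these could give is 0.00216.

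**Figure D2:**
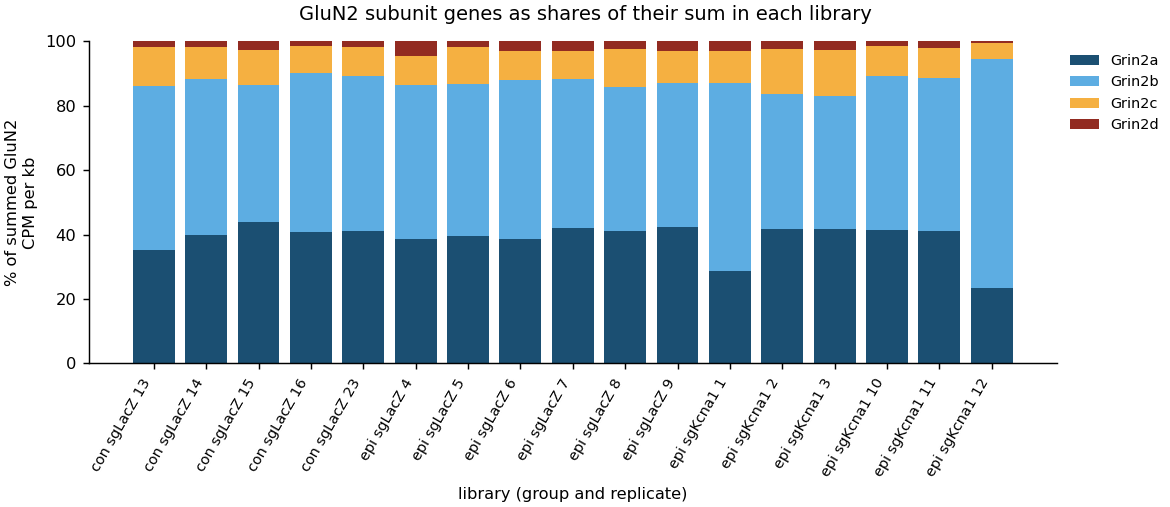
Share of each GluN2 gene (vertical axis, percent of the summed CPM per kb of Grin2a to Grin2d) in each of the 17 libraries, with 1 stacked bar per library (con, control; epi, epileptic). The bars look alike except epileptic sgKcna1 replicates 12 and 1, where Grin2b takes 71.2% and 58.4%.

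As shares of the summed GluN2 level per kb, Grin2b made up 47.8 ± 3.12% (SD, n = 5) in control, 46.7 ± 1.86% (n = 6) in epileptic sgLacZ and 51.4 ± 11.5% (n = 6) in epileptic sgKcna1 libraries. Grin2a made up 40.2 ± 3.19%, 40.4 ± 1.66% and 36.3 ± 8.17% in the same order. Grin2c took 10.1 ± 1.51%, 9.93 ± 1.33% and 10.2 ± 3.45%. Grin2d took the smallest share, with 1.90 ± 0.449%, 2.96 ± 0.872% and 2.07 ± 0.922%. The shares of 1 library sum to the whole, so they are not independent of each other.

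Grin2c, the subunit gene best known from cerebellum and glia, was the most even of the 6 over all libraries, with a coefficient of variation of 10.8%. Control replicates 13, 14, 15, 16 and 23 had 44.3, 47.2, 41.02, 40.5 and 42.02 CPM. Epileptic sgLacZ libraries had 36.3 to 51.4 CPM (median 43.2) and epileptic sgKcna1 libraries 36.7 to 51.1 CPM (median 43.4), so the groups covered nearly the same range. The log2 fold changes were 0.02, 0.01 and 0.03 for epileptic sgLacZ against control, epileptic sgKcna1 against epileptic sgLacZ and epileptic sgKcna1 against control (edgeR adjusted p = 0.890, 0.969 and 0.954). The widest of the 3 intervals ran from -0.19 to 0.26. Summed markers of astrocytes (5 genes) were higher beside it in epileptic sgLacZ libraries, at 893 to 1318 CPM against 782 to 871 CPM in control and 836 to 1144 CPM in epileptic sgKcna1 libraries. The first pair of groups did not overlap in this sum, as for 4.39% of all single genes. Of the 5 genes, 4 had a log2 fold change above 0 in that comparison. Only 2 passed the edgeR threshold as higher, where 7.26% of all genes did.

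Grin2d, the interneuron subunit gene, had the largest fold change of the 6 between epileptic sgLacZ and control mice, and it did not pass the test. Control replicates 13, 14, 15, 16 and 23 had 7.36, 8.53, 11.2, 8.26 and 9.55 CPM, from 44 to 818 reads per library over the whole series. Epileptic sgLacZ libraries had 8.30 to 27.9 CPM with a median of 14.5, and 4 of 6 lay above every control. Replicate 4 had the 27.9 CPM and the next library 15.2 CPM. The log2 fold change was 0.75 (SE 0.30, 95% interval 0.12 to 1.37) and edgeR's quasi-likelihood test gave an adjusted p of 0.0900 (0.0219 before Benjamini-Hochberg adjustment). It passed the threshold without epileptic sgLacZ replicate 5 (0.87, edgeR adjusted p = 0.0301) and without epileptic sgKcna1 replicate 12 (0.74, adjusted p = 0.0424), fits in which 31.3% and 27.1% of all genes passed. Without replicate 4 it was 0.48.

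In epileptic sgKcna1 mice Grin2d had 4.11 to 16.1 CPM with a median of 10.1. Against epileptic sgLacZ the log2 fold change was -0.63 (95% interval -1.22 to -0.04) and edgeR's test gave an adjusted p of 0.245 (0.0387 before adjustment). It was -0.35 without epileptic sgLacZ replicate 4, -0.48 without epileptic sgKcna1 replicate 12 and -0.08 with percent unmapped reads as a covariate. The groups overlapped, with replicate 12 and 1 other library below every epileptic sgLacZ library. Against control it was 0.12 (-0.50 to 0.74, edgeR adjusted p = 0.939), and 0.26 without replicate 12. The unstranded count of Grin2d was 37.2 to 70.5% of its summed strand counts, so part of its reads was shared with a feature on the other strand that is not named here. In summed counts the difference between guides was -0.31 (-0.90 to 0.28, edgeR adjusted p = 0.508) and that between epileptic sgLacZ and control was 0.71 (0.08 to 1.33, adjusted p = 0.0991). Interneuron markers (6 genes), summed, were at 1224 to 1532 CPM in control, 819 to 1380 in epileptic sgLacZ and 995 to 1464 in epileptic sgKcna1 libraries. Their part in the Grin2d values was not tested, and in bulk tissue fewer cells of a type and less RNA per cell cannot be told apart.

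Grin3a, which encodes the glycine-binding subunit GluN3A, had 30.5, 25.0, 32.6, 36.8 and 25.99 CPM in control replicates 13, 14, 15, 16 and 23. Epileptic sgLacZ libraries had 22.02 to 49.4 CPM (median 28.04) and epileptic sgKcna1 libraries 23.2 to 55.3 CPM (median 27.9). Most libraries of each group lay between 22.02 and 36.8 CPM, and only epileptic sgLacZ replicate 4 and epileptic sgKcna1 replicates 1 and 12 were higher. The log2 fold change was 0.03 for epileptic sgLacZ against control (95% interval -0.47 to 0.53, edgeR adjusted p = 0.940), 0.16 between the guides (-0.31 to 0.64, adjusted p = 0.688) and 0.20 when epileptic sgKcna1 was set against control (-0.31 to 0.70, adjusted p = 0.857). Without epileptic sgKcna1 replicate 12 the last 2 were 0.04 and 0.06, and without replicate 1 they were -0.02 and 0.01.

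**Figure D3:**
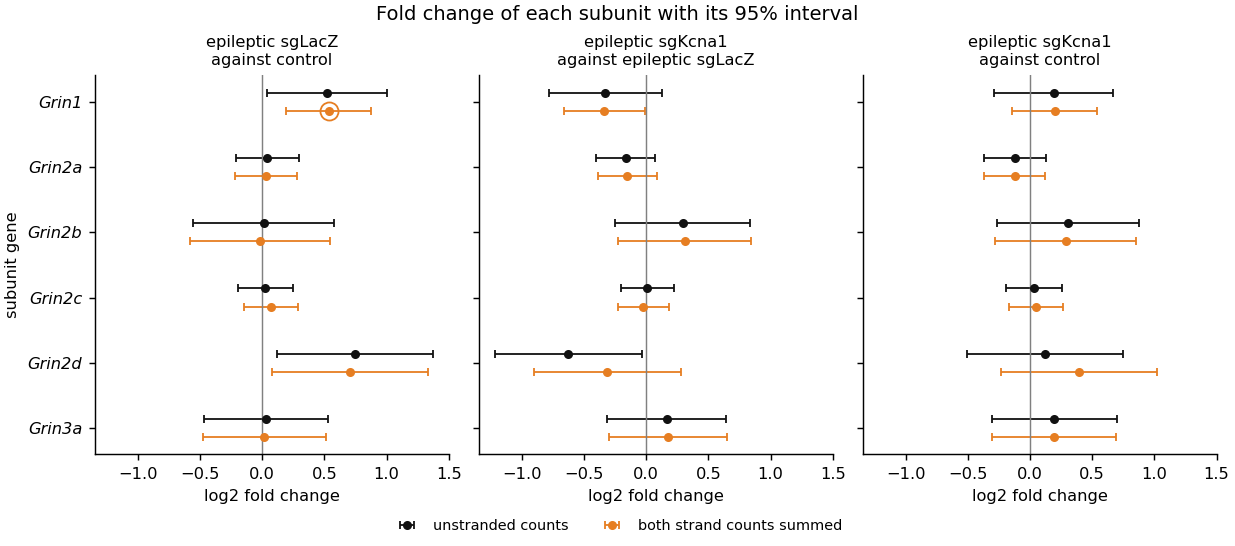
Log2 fold change (horizontal axis) of each subunit gene with its 95% interval in 3 comparisons, from the unstranded counts and from the sum of both strand counts, with a ring where the adjusted p was under 0.05. The only ring is that of Grin1 in the summed counts of epileptic sgLacZ against control (0.53), and the intervals of Grin2a and Grin2c are the narrowest.

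Between epileptic sgLacZ and control mice 0 of the 6 subunit genes passed the threshold in unstranded counts, where 11.0% of all 17615 genes tested did. Grin1 and Grin2d had an unadjusted p under 0.05, as did 34.7% of all genes. In 0 of 6 were the groups free of overlap, against 4.39% of all genes. Between epileptic sgKcna1 and epileptic sgLacZ mice 0 of 6 passed, and 0% of all genes did. Grin2d had an unadjusted p under 0.05 there, as did 19.2% of all genes, and the groups overlapped for all 6 subunits, while they did not for 0.483% of all genes. Between epileptic sgKcna1 and control mice 0 of 6 passed, with 0% of all genes, 0 of 6 had an unadjusted p under 0.05, against 6.77% of all genes, and the groups overlapped for all 6, while they did not for 1.14% of all genes. DESeq2 called 0 of 6 in each comparison, with 20.6%, 0.881% and 0.222% of the genes it tested in the same order. Limma voom with quality weights called Grin1 and Grin2d between epileptic sgLacZ and control, together with 41.4% of all genes. In the other comparisons it called 0 of 6, with 0.0681% of all genes between the guides and 0.403% against control. The last 2 comparisons share the epileptic sgKcna1 libraries, and the first 2 the epileptic sgLacZ libraries.

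**Figure D4:**
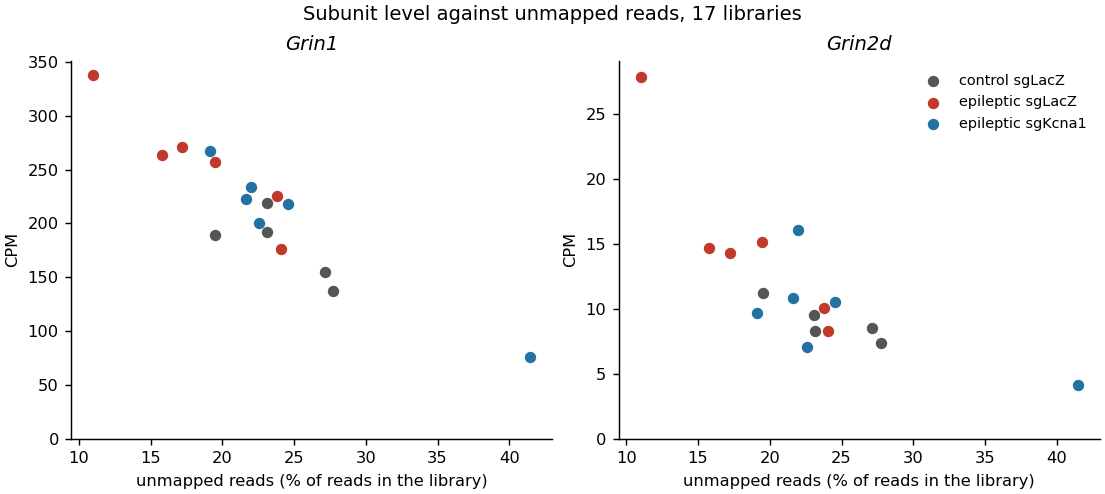
Level of Grin1 and Grin2d in CPM (vertical axes, from 0) against the percent of unmapped reads in the library (horizontal axes), with 1 point per library coloured by group. Both genes are lower where more reads were unmapped, from epileptic sgLacZ replicate 4 at 11.0% to epileptic sgKcna1 replicate 12 at 41.5%.

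Grin1 and Grin2d were lower in libraries with more unmapped reads. Over the 17 libraries Pearson's r between log2 CPM and percent unmapped was -0.947 for Grin1 (Spearman's rho -0.868, permutation p = 1e-05 and 4e-05, adjusted over 6 relations 6e-05 and 0.00024), and 1e-05 is the smallest p the permutations can give. For Grin2d r was -0.876 (rho -0.757, permutation p = 4e-05 and 0.00067, adjusted 0.00012 and 0.0020). Without the 2 libraries farthest from the median percent unmapped, epileptic sgKcna1 replicate 12 and epileptic sgLacZ replicate 4, r was -0.828 and -0.695 (n = 15). With replicate 12 included, r was negative in each group for both genes, but for Grin2d in epileptic sgKcna1 libraries this rested on replicate 12. Within control, epileptic sgLacZ and epileptic sgKcna1 libraries r of Grin2d was -0.874, -0.951 and -0.802. The last value includes replicate 12, at 4.11 CPM and 41.5% unmapped. The other libraries of that group had 7.05 to 16.1 CPM of Grin2d at 19.1 to 24.6% unmapped, and r among them alone is not given. For Grin1 r was -0.766 in control, -0.921 in epileptic sgLacZ and -0.989 in epileptic sgKcna1 libraries. For Grin2a, Grin2b, Grin2c and Grin3a the adjusted permutation p for r was 0.12 to 0.68. Within groups r of these genes changed sign. In epileptic sgLacZ libraries it was -0.934, -0.754, -0.12 and -0.694 in the same order. In epileptic sgKcna1 libraries it was 0.58, 0.86, -0.373 and 0.464, and in control -0.367, 0.362, 0.809 and -0.429. With percent unmapped as a covariate, the log2 fold change between epileptic sgLacZ and control was 0.10 for Grin1 (SE 0.10, edgeR adjusted p = 0.548) and 0.21 for Grin2d (SE 0.20, adjusted p = 0.541). Grin1, Grin2c and Grin2d have transcripts of 59.4%, 62.1% and 65.0% GC, and Grin2a, Grin2b and Grin3a of 51.6%, 51.4% and 49.2%. Over all tested genes with a GC value the median log2 fold change of the same comparison ran from -0.09 for transcripts under 45% GC to 0.19 for those of 55 to 60% GC. It was 0.15 for transcripts of 60% GC or more, where Grin2c and Grin2d fall. With an offset for GC content, Grin1 was at 0.35 (edgeR adjusted p = 0.211) and Grin2d at 0.71 (adjusted p = 0.0985). The part of library quality in these values was not tested further.

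Among the 15 pairs of subunit genes, Grin1 and Grin2d varied together most closely. Pearson's r of their log2 CPM over 17 libraries was 0.863 (rho 0.779, permutation p = 2e-05 and 0.00048, adjusted 3e-04 and 0.0072), and 0.798 without the 2 libraries farthest from the median of Grin1 (n = 15). It was 0.657, 0.957 and 0.848 within control, epileptic sgLacZ and epileptic sgKcna1 libraries, and both genes share the relation to unmapped reads. The 0.848 includes replicate 12, the lowest of its group for both genes, and the value within the group without it is not given. Over all libraries but replicate 12, r of Grin1 and Grin2d was 0.804 (n = 16). Grin2b and Grin3a followed with r = 0.683 (rho 0.512, permutation p = 0.0020 and 0.037, adjusted 0.015 and 0.18). Without epileptic sgKcna1 replicates 12 and 1 it was 0.481 (n = 15). Within control, epileptic sgLacZ and epileptic sgKcna1 libraries it was -0.191, 0.904 and 0.754, so it differed between groups, and each group holds few libraries. The epileptic groups include the libraries highest for Grin3a, epileptic sgLacZ replicate 4 and epileptic sgKcna1 replicates 1 and 12. For the remaining pairs the adjusted permutation p for r was 0.24 to 0.67. Grin1 and Grin2b, whose r was -0.539, had 0.178 without replicate 12 (n = 16).

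For each subunit gene the genes with the most similar pattern over the 17 libraries were taken from 9314 candidates, as a description of libraries that share depth and quality. Grin1 was most like Paip2b (r = 0.988, rho 0.978) and Rnf10 (r = 0.983, rho 0.973). Grin2d was most like Adcyap1r1, the receptor of the neuropeptide PACAP (r = 0.959, rho 0.863), and Abat, which encodes the enzyme that degrades GABA (r = 0.946, rho 0.853). Grin2b was most like Ptprg (r = 0.958) and Ylpm1 (0.949), and Grin2a like Clstn2, a postsynaptic calsyntenin (0.873), and Dock9 (0.830). For Grin3a they were Gprasp1 and Cdh13, with r = 0.871 each. Grin2c had the weakest likeness to any gene, with Mvd, an enzyme of sterol synthesis, at 0.721 and the potassium channel subunit gene Kcns1 at 0.709.

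**Figure D5:**
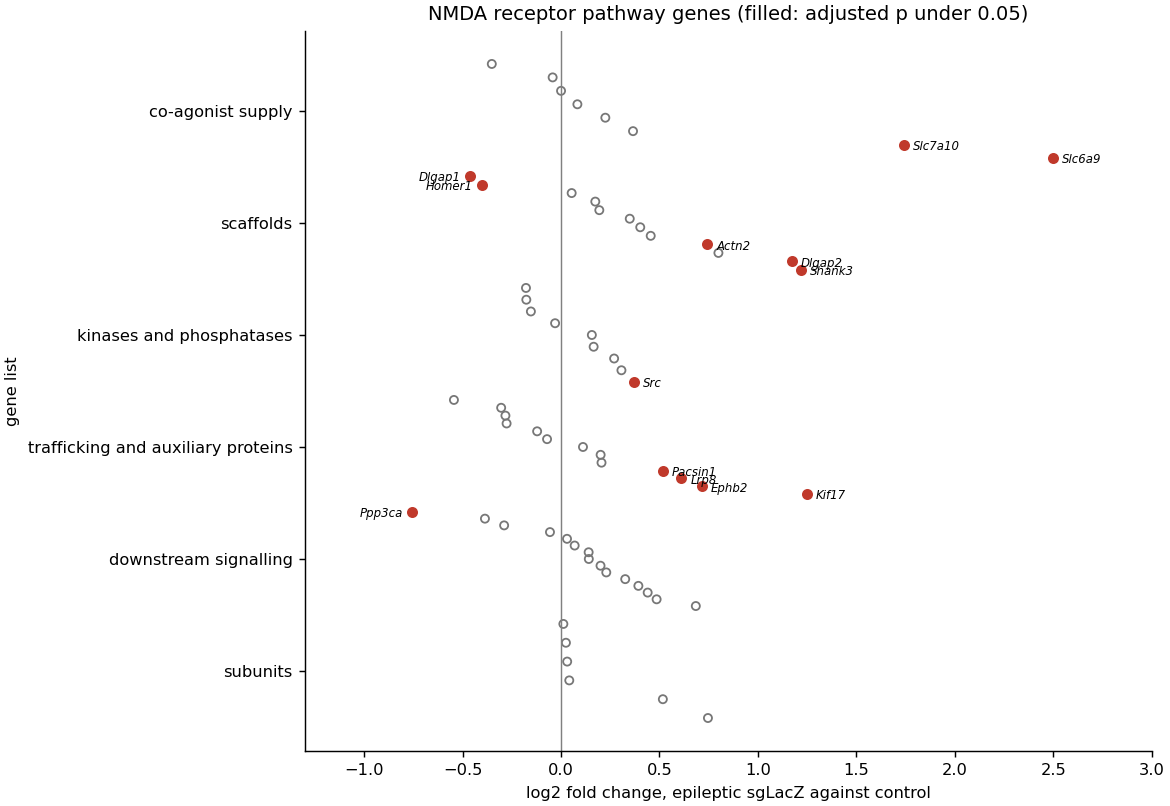
Log2 fold change between epileptic sgLacZ and control mice (horizontal axis) for 57 genes of the NMDA receptor pathway in 5 lists and for the 6 subunits, with 1 point per gene, filled where the adjusted p was under 0.05. Scaffold and trafficking genes hold 9 of the 13 filled points, and no subunit point is filled.

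The genes that act with the receptor were set beside the subunits in 5 lists of 58 genes, of which 57 were tested. Between epileptic sgLacZ and control mice 10 were higher and 3 lower by the edgeR test, where 7.26% of all genes were higher and 3.76% lower. Their median log2 fold change was 0.17, that of the 6 subunits 0.04 and that of all genes 0.02. These calls depended on single libraries: 0 of the pathway genes, and 0 of all genes, passed when epileptic sgLacZ replicate 4, 7 or 9 or control replicate 13, 14, 16 or 23 was left out. Without epileptic sgLacZ replicate 5 there were 20 higher and 9 lower, where 31.3% of all genes passed. Without epileptic sgKcna1 replicate 12 there were 16 and 5, with 27.1% of all genes. Without epileptic sgLacZ replicate 6 there were 8 and 0 (5.44% of all genes), and without control replicate 15 there were 4 and 0 (2.90%). With percent unmapped as a covariate 3 were higher and 2 lower, and 2.43% of all genes passed.

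Of 12 scaffold genes, 3 were higher and 2 lower. Shank3, a master scaffold of the postsynaptic density, rose from a mean of 75.4 to 176 CPM (log2 fold change 1.22, SE 0.30, edgeR adjusted p = 0.0330). Dlgap2, which links PSD-95 to Shank proteins, rose from 9.11 to 20.5 CPM (1.17, SE 0.29, adjusted p = 0.0333), and Actn2, an actin-binding partner of GluN1, from 6.501 to 10.9 CPM (0.74, SE 0.20, adjusted p = 0.0355). Dlgap1, of the same family as Dlgap2, was lower at 594 against 819 CPM (-0.46, SE 0.13, adjusted p = 0.0365), and so was Homer1, which joins Shank to metabotropic glutamate receptors, at 84.1 against 111 CPM (-0.40, SE 0.13, adjusted p = 0.0489). The libraries of the 2 groups did not overlap for Dlgap1 and Homer1 and overlapped for Shank3, Dlgap2 and Actn2. They did not overlap for 4.39% of all genes.

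Of 13 trafficking and auxiliary genes, 4 were higher and 0 lower. Kif17, the motor that carries GluN2B along dendrites, rose from 7.73 to 18.4 CPM (log2 fold change 1.25, SE 0.27, edgeR adjusted p = 0.0320). Ephb2, an ephrin receptor that clusters NMDA receptors, rose by 0.72 (SE 0.19, adjusted p = 0.0355), Lrp8, a reelin receptor, by 0.61 (SE 0.16, adjusted p = 0.0347) and Pacsin1, an adaptor in the endocytosis of GluN3A, by 0.52 (SE 0.16, adjusted p = 0.0446). Of 9 kinases and phosphatases, 1 was higher and 0 lower. This was Src, a tyrosine kinase that enhances NMDA receptor currents, which rose from 118 to 152 CPM (0.37, SE 0.10, edgeR adjusted p = 0.0398). Of 15 genes of downstream signalling, 0 were higher and 1 was lower. This was Ppp3ca, the catalytic subunit of calcineurin, at 3067 against 5188 CPM (-0.76, SE 0.23, edgeR adjusted p = 0.0436). Its groups did not overlap, as for 4.39% of all genes.

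Of 8 tested genes of co-agonist supply, 2 were higher, and both calls depended on the counted strand. Slc6a9, the glycine transporter GlyT1, was at 11.7 against 2.07 CPM (log2 fold change 2.50, SE 0.55, edgeR adjusted p = 0.0320) and Slc7a10, the transporter Asc-1 of glycine and D-serine, at 21.9 against 6.55 CPM (1.74, SE 0.34, adjusted p = 0.0310). Their summed strand counts were 9.413 and 4.202 times the unstranded counts (medians over libraries), and in summed counts the log2 fold changes were 0.39 (adjusted p = 0.122) and -0.09 (adjusted p = 0.608). The calls of the other 11 genes kept their direction in summed counts and stayed past the threshold, with adjusted p between 0.0250 and 0.0415.

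In the comparisons with epileptic sgKcna1 mice 0 of the 57 pathway genes passed the edgeR threshold, as did 0% of all genes. An unadjusted p under 0.05 was found for 19 of 57 against epileptic sgLacZ, beside 19.2% of all genes, and for 7 of 57 against control, beside 6.77%. DESeq2 called 1 and 0 of them, beside 0.881% and 0.222% of the genes it tested. Limma voom called 0 and 0, beside 0.0681% and 0.403% of all genes. The smallest p of each list against epileptic sgLacZ belonged to Homer1 (log2 fold change 0.47), Slc6a9 (-1.61), Ephb2 (-0.57), Camk4 (0.45), a calcium-dependent kinase that acts on CREB, and Ptk2b (-0.39), a kinase that activates Src, each with an edgeR adjusted p of 0.213. In summed strand counts Slc6a9 was at -0.33 (edgeR adjusted p = 0.269). Without epileptic sgLacZ replicate 5, 2 of the 57 were higher and 10 lower against epileptic sgLacZ, where 8.54% of all genes passed (757 higher and 751 lower). Against control the smallest p belonged to Slc7a10 (0.82), Camk2d (0.93), Ptpn5 (0.29), Dlg1 (0.27) and Cnih2 (-0.30), with edgeR adjusted p between 0.644 and 0.695, and Slc7a10 was at -0.14 in summed strand counts (adjusted p = 0.794).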

How the data were processed

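Polyadenylated RNA of mouse hippocampi was sequenced in 17 libraries, and the authors aligned the reads to mm10 with STAR (2.7 in the submitters' processing notes). The deposited counts are raw reads per gene for 55450 Ensembl genes, in an unstranded column and a column for each strand, with 4 summary lines. The annotation release and the treatment of duplicate reads are not given in the sources used here. The labels name a TruSeq v2 kit, whereas the methods name a stranded kit. The ratio of the strand columns was 0.994 to 0.998, so the unstranded column was used, which leaves out reads shared by genes on opposite strands. Reads that map to several places are not counted.

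Counts were tested in R 4.3.3 with the quasi-likelihood F test of edgeR 4.0.16, two-sided, on all 17 libraries in 1 fit with 3 groups and no covariate, after filterByExpr (17615 genes left) and TMM scaling. P-values were adjusted by the Benjamini-Hochberg method over all genes tested, with a threshold of 0.05. The alternatives were the size factors of DESeq2, the test of DESeq2 1.42.0, voom in limma 3.58.1 with quality weights, no filter, the sum of both strand columns, sex or percent unmapped reads as a covariate, and each library left out. Sex, which the labels do not give, was inferred from reads of Xist against those of the Y-linked genes Ddx3y, Eif2s3y, Kdm5d and Uty. Its spread over the groups is not given here. A GC content offset and the sum of strands with each library left out were added after seeing the data. The fit was tested on simulated data. The Grin2b to Grin2a ratio (prior count of 2 reads) was compared by exact permutation over libraries. Relations across libraries were tested by permutation.

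The members and the lists were chosen with earlier results of these data known. Of the pathway lists, 1 gene is not reported here and enters none of their counts. The genes named from a pathway list were those past the threshold (at most the 4 largest rises and the 4 largest falls in a list) and, in a list with none, the gene with the smallest p. For likeness, the 2 genes with the highest Pearson r were named, among genes whose mean reached 5 CPM and whose summed strand counts were at most 1.05 times the unstranded count. Symbols, promoters and coordinates are from RefSeq tables of GRCm38.p6, the same assembly as mm10. Lengths and GC content are from coding transcripts annotated on mm9, from which no coordinate was taken. Libraries of the same group differed by 8.67 to 220.2 times the sampling noise (chi-square per degree of freedom, 40 pairs), so none was treated as a copy. Nothing in the labels says whether libraries of a group came from separate litters or batches, and p-values measure the spread between these libraries.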

Additional observations from a re-analysis of the deposited data

Results flagged for a closer look

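Among 21 sets of values (the 6 subunit genes and the Grin2b to Grin2a ratio, each in 3 groups), 4 held a library that stood far from the others of its group by Dixon's criterion, which chance meets in about 1 of 20 sets. Grin1 was at 76.3 CPM in epileptic sgKcna1 replicate 12, where the nearest library of the group had 200.05 CPM. Grin2b was at 859 CPM in the same library, where the nearest had 425 CPM. Grin2d was at 27.9 CPM in epileptic sgLacZ replicate 4, where the nearest had 15.2 CPM. Grin3a was at 49.4 CPM in the same library, where the nearest had 31.2 CPM. Replicate 12 had the highest share of unmapped reads of the 17 libraries, 41.5%, and replicate 4 the lowest, 11.0%, and the part of this in the 4 values was not tested.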

How the results depend on the processing

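No paired analysis was possible because the groups share no replicate numbers. Of 144 log2 fold changes of subunit genes under other settings, 120 kept their direction and side of the threshold, 3 passed it and 21 changed sign. Between epileptic sgLacZ and control the count of subunits past the threshold was 0, against 2 with limma voom (Grin1 and Grin2d), 1 with summed strands (Grin1), and 0 to 2 with 1 library left out. The sign changed for Grin2b (-0.047), Grin2c (-0.029) and Grin3a (-0.11) with voom, Grin2b (-0.020) with summed strands, Grin2a (-0.014), Grin2b (-0.14) and Grin3a (-0.039) with sex as a covariate, Grin2c (-0.0085) with percent unmapped as a covariate, and Grin2a (-0.045), Grin2b (-0.070), Grin2c (-0.10) and Grin3a (-0.014) with the GC offset. Between epileptic sgKcna1 and epileptic sgLacZ it changed for Grin2b (-0.090) with voom, Grin2c with no filter (-0.0095), summed strands (-0.023) and sex (-0.029), and Grin1 (0.079) and Grin2b (-0.16) with percent unmapped. Between epileptic sgKcna1 and control it changed for Grin2b (-0.14) and Grin3a (-0.069) with voom and Grin2c (-0.014) with the GC offset. With 1 library left out, epileptic sgLacZ against control ran from -0.050 to 0.094 for Grin2a, -0.078 to 0.070 for Grin2b, -0.028 to 0.074 for Grin2c and -0.16 to 0.11 for Grin3a. Epileptic sgKcna1 against epileptic sgLacZ ran from -0.11 to 0.41 for Grin2b, -0.039 to 0.063 for Grin2c and -0.018 to 0.36 for Grin3a, and against control from -0.097 to 0.42, -0.015 to 0.080 and, for Grin2d, -0.085 to 0.26. The log2 ratio of Grin2b to Grin2a between epileptic sgLacZ and control was 0.22 and between the guides -0.010 with percent unmapped as a covariate, and the first ran from -0.11 to 0.030 with 1 library left out. The cause of these changes was not tested. Over all genes, epileptic sgLacZ against control gave 1940 calls, 3634 with DESeq2, 7301 with voom, 516 with sex, 428 with percent unmapped and 918 with the GC offset. Epileptic sgKcna1 against epileptic sgLacZ gave 0, 134 with DESeq2, 12 with voom and 1508 without epileptic sgLacZ replicate 5. Epileptic sgKcna1 against control gave 0, 39 with DESeq2, 71 with voom and 266 with percent unmapped. Grin2d, with 44 to 818 reads, had the widest intervals of the 6.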
